A study of Mus musculus with 4 samples.

Results

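The cytosolic ribosomal proteins are the protein components of the ribosome that translates nuclear-encoded messages. The set was defined by name: protein-coding genes with a symbol of the form Rpl or Rps plus a number and at most one closing letter (a, x, l or y), the Rplp stalk genes, and Rpsa. The rule found 80 genes among the 52636 gene identifiers counted, 49 for the large subunit and 31 for the small subunit, and it used no measured value. The ribosome has a large subunit, which joins amino acids and releases the growing chain through an exit tunnel, and a small subunit, which reads the message. Their proteins are made in matched amounts, and many of their messages begin with a 5′ terminal oligopyrimidine (TOP) tract, a run of C and T bases through which mTOR signalling controls their translation. Ribosomal proteins that fail to find a place in a subunit can bind the p53 inhibitor Mdm2, and mutations that lower one ribosomal protein cause Diamond-Blackfan anaemia in humans and skeletal, tail or pigment defects in mice.

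RNA-seq was done on otic cells that had been purified by FACS from mouse otocysts, the epithelial vesicles that become the inner ear. There were 2 libraries with the genotype Brg1cKO, a conditional knockout of Brg1, and 2 with the genotype Control. Brg1, encoded by Smarca4, is an ATPase of BAF chromatin remodelling complexes. The Cre driver, strain, embryonic stage and the number of litters or sorts behind each library do not appear in the labels, and the p-values therefore speak only of library-to-library spread, part of which may be technical. Each library came from 3000 cells.

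The gene counts summed to 29361382 and 25875555 reads in the Brg1cKO libraries and to 15357265 and 19132360 reads in the control libraries. Smarca4 (chr9:21616169-21704230, mm10) had 891 and 848 scaled CPM (gene counts relative to library totals corrected with TMM factors) in Brg1cKO cells, against 816 and 815 in control cells (log2 fold change 0.09 ± 0.0995, edgeR adjusted p = 0.817). Exons that a conditional allele leaves in place also give reads to this count, so it is a weak check of the labels. Summed markers of otic epithelium stood at 1170 and 1228 CPM in Brg1cKO cells and at 3749 and 3946 CPM in control cells. Of these 16 markers, 0 were higher in Brg1cKO cells (median log2 fold change -1.99). The labelled tissue was thus detected in all 4 libraries, with lower marker levels in the Brg1cKO libraries. Macrophage markers summed to 1880 and 1813 CPM in Brg1cKO cells, against 423 and 519 CPM in control cells, with 15 of 15 higher. Striated muscle and heart markers summed to 914 and 916 CPM in Brg1cKO cells and 194 and 145 CPM in control cells, with 10 of the 11 tested higher. Neuroblast markers summed to 497 and 443 CPM in Brg1cKO cells, against 1519 and 1502 CPM in control cells, with 0 of 12 higher. In bulk RNA, fewer cells of a type and less RNA per cell cannot be told apart, and the part of this difference in cell markers in the ribosomal protein values below was not tested.

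As a class the ribosomal protein genes differed little between the genotypes. Reads in the 80 genes made up 2.84% and 2.81% of gene reads in Brg1cKO cells, against 2.64% and 2.61% in control cells. The means were 2.82% ± 0.0217 in Brg1cKO cells and 2.62% ± 0.0191 in control cells (SD, n = 2 each), a difference of 0.202 percentage points and a ratio of 1.08. The libraries of the 2 genotypes did not overlap, and the difference was larger than the spread within either. Library quality split the same way: unaligned records made up 9.54% and 9.41% in Brg1cKO libraries, against 20.9% and 19.1% in control libraries, and 20859 and 20902 genes were detected in Brg1cKO libraries, against 17266 and 17086 in control libraries. The Brg1cKO libraries also held more gene reads, and detected genes were not counted at equal depth. The part of these library traits in the difference was not tested. Both subunits showed it: the large subunit held 1.72% and 1.69% of gene reads in Brg1cKO cells, against 1.60% and 1.58% in control cells, and the small subunit held 1.12% and 1.12% in Brg1cKO cells, against 1.04% and 1.03% in control cells. The balance between the subunits was nearly the same in every library, with 1.53 and 1.51 large subunit reads per small subunit read in Brg1cKO cells and 1.53 and 1.53 in control cells.

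**Figure D1:**
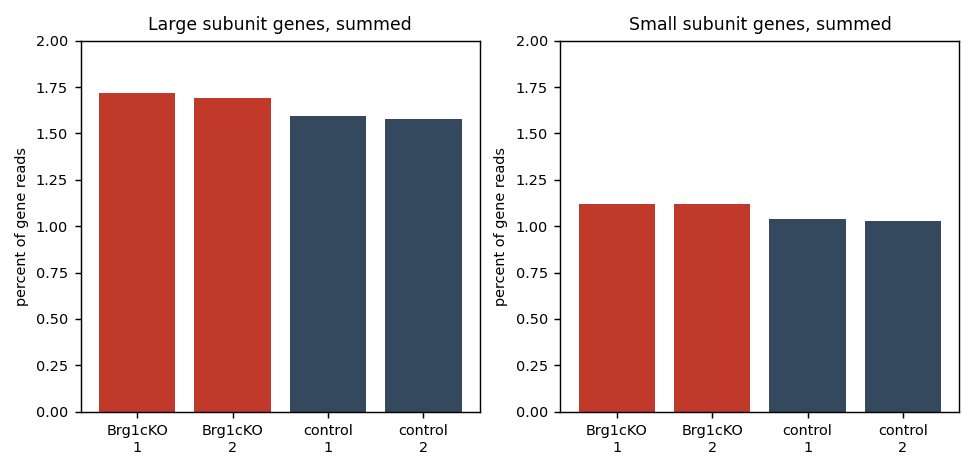
Percent of all gene reads that fell in large subunit genes (left) and small subunit genes (right), one bar per library, Brg1cKO in red and control in dark blue. In both panels both Brg1cKO bars stand above both control bars, at 1.72% and 1.69% against 1.60% and 1.58% for the large subunit.

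Of the 80 genes, 75 had enough reads to be tested, 44 of the large and all 31 of the small subunit. None of them passed an adjusted p of 0.05 in edgeR's quasi-likelihood test with Benjamini-Hochberg adjustment over the 16557 genes tested, a threshold that 5 genes, or 0.0302% of those tested, passed. At an unadjusted edgeR p under 0.05 there were 8 of the 75 members (10.7%), 6 higher and 2 lower in Brg1cKO cells. That is close to the background: 12.5% of all tested genes were under the same p, 7.66% higher and 4.8% lower, and among the 6902 genes whose average log2 CPM was 5 or more, which include every tested member, 13.8% were, 6% higher and 7.77% lower. DESeq2 called all 8 at an adjusted p of 0.05, beside 14.6% of all genes. With every gene of at least 1 count kept, edgeR called 1 member, Rpl26, beside 1.66% of the genes. Leaving out control replicate 1 gave 14 members called by edgeR (background 17.6%), and leaving out control replicate 2 gave 15 (background 16.9%), with the lone control library assumed to vary like the Brg1cKO libraries. Without Brg1cKO replicate 1 or 2 the count stayed at 0, with 1 and 2 members at an unadjusted p under 0.05.

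The log2 fold change of Brg1cKO over control was positive for 58 of the 75 members (77.3%), 34 of 44 in the large and 24 of 31 in the small subunit, against 51.5% of all tested genes and 48.3% of the genes at or above an average log2 CPM of 5. The median was 0.11 in the large and 0.10 in the small subunit, against 0.03 over all tested genes. Without Brg1cKO replicate 1, the small subunit median was 0.18. With RLE in place of TMM scaling, 63.6% of large and 71.0% of small subunit members were positive, against 49.5% of all genes. Without control replicate 2 these shares were 60.9% and 74.2%, against 59.4% of all genes, and without control replicate 1 they were 66.7% and 71.0%, against 59.9%. The comparison with other genes also depends on how low-count genes are handled: without a low-count filter the median over all genes was 0.21, above both subunits. It was also above both with limma voom (0.16) and with replicate number as a block (0.16), and it was 0.29 without control replicate 1 and 0.29 without control replicate 2. Both Brg1cKO libraries lay above both control libraries for 26 members (34.7%, against 26.3% of all tested genes and 22.7% of the well-expressed ones). They lay below both for 6 (8%, against 17.8% and 23.4%), which were Rpl19, Rpl22, Rpl26, Rpl28, Rps27 and Rps3, and the groups overlapped for the other 43.

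The members' fold changes lay close together. For 71 of 75 (94.7%) the log2 fold change lay between -0.5 and 0.5, against 44.9% of all tested genes and 69.6% of those whose average log2 CPM reached 5. The full range was -0.73 to 1.31. Replicates were close as well: the median absolute log2 ratio between the replicate libraries was 0.11 in Brg1cKO cells and 0.22 in control cells over the members, and 0.20 in Brg1cKO cells and 0.45 in control cells over the genes at that level. The 95% interval of the fold change lay within -1 and 1 on the log2 scale for 69 of the 75 members, with a median half-width of 0.39.

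**Figure D2:**
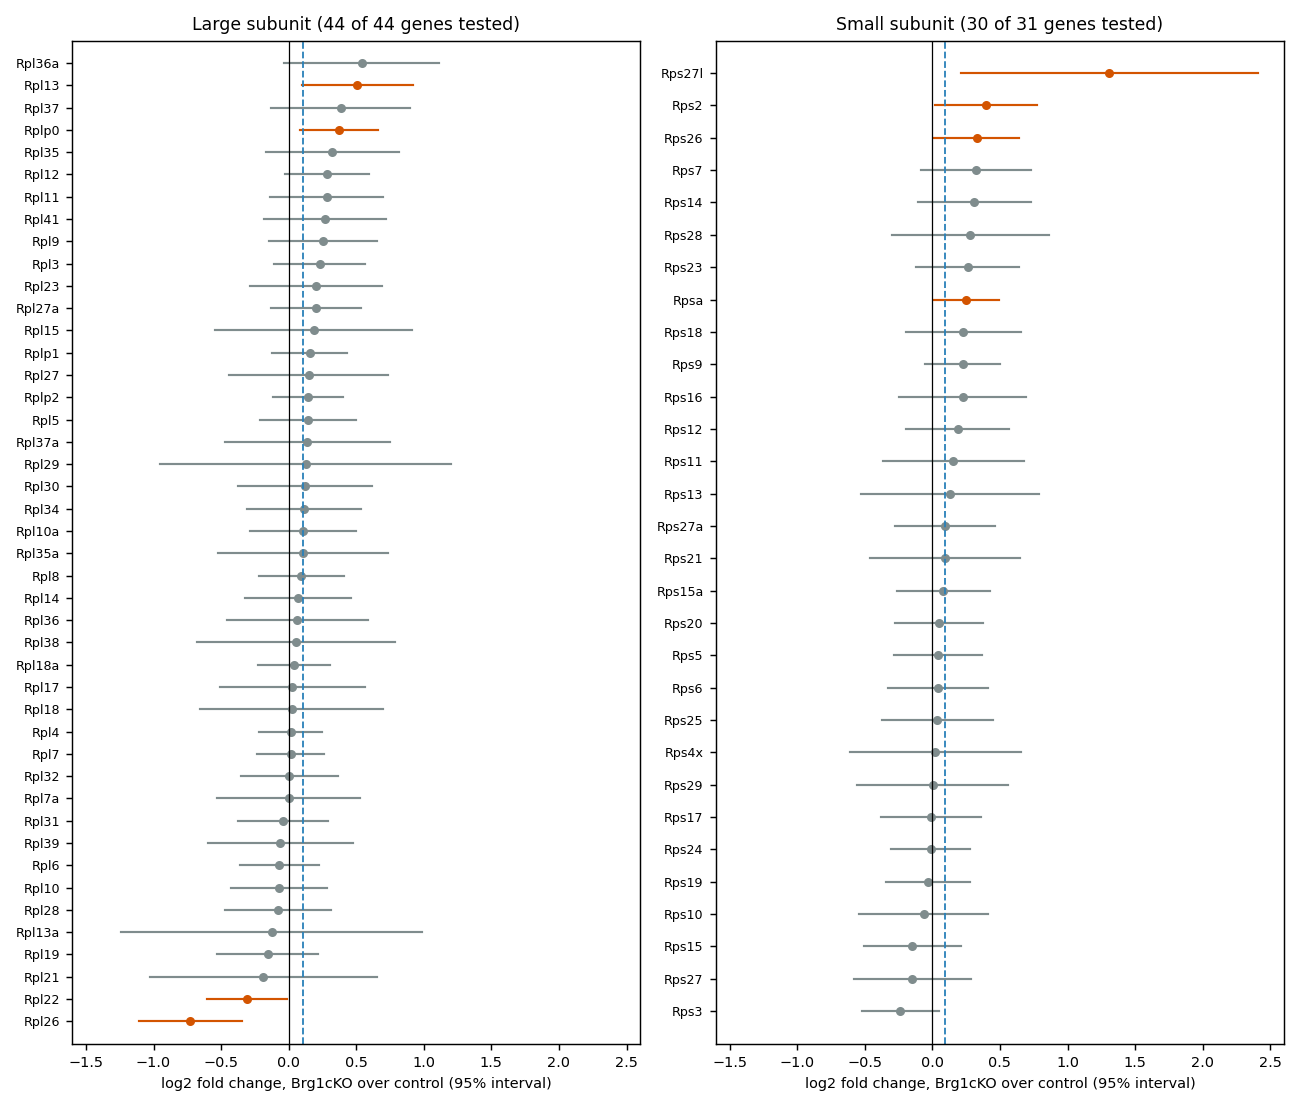
log2 fold change of Brg1cKO over control with its 95% interval for each tested large subunit gene (left, 44 genes) and for 30 of the 31 tested small subunit genes (right), in order of size. The dashed line is the median of all tested genes of the subunit, 0.11 and 0.10, and the 8 genes with an unadjusted p under 0.05 are in orange, with Rps27l at the top and Rpl26 at the bottom.

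Among large subunit proteins, the stalk is the arm that recruits the elongation factors. Rplp0, which anchors the stalk to the ribosome (chr5:115559467-115563727), had 1001 and 997 CPM in Brg1cKO cells, against 693 and 847 CPM in control cells. The Brg1cKO libraries were nearly equal and above both controls, and the log2 fold change was 0.37 ± 0.123 (SE; edgeR adjusted p = 0.368). Rpl12, at the base of the stalk, had 529 and 515 CPM in Brg1cKO cells and 460 and 399 CPM in control cells, a log2 fold change of 0.28 ± 0.133 (edgeR adjusted p = 0.467). The stalk's paired acidic proteins were less far apart, with Rplp1 at 948 and 993 CPM in Brg1cKO cells, against 950 and 793 CPM in control cells, where the groups overlapped. Rplp2 had 975 and 853 CPM in Brg1cKO cells, against 844 and 810 CPM in control cells, where they did not. All 4 of these genes had a positive fold change (median 0.22), as did 77.3% of all tested members. Both proteins that ride with 5S ribosomal RNA and bind Mdm2, Rpl5 and Rpl11, were positive as well (median 0.21). Rpl11 had 322 and 321 CPM in Brg1cKO cells, against 230 and 299 CPM in control cells. Rpl5 had 584 and 482 CPM in Brg1cKO cells and 519 and 446 CPM in control cells, so its groups overlapped.

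The proteins around the exit tunnel, where the new chain leaves, had more negative than positive fold changes, with 3 of 8 tested positive and a median of -0.05. Rpl26 (chr11:68901583-68906989), a tunnel rim protein that in human cells also binds the p53 message, had 236 and 265 CPM in Brg1cKO cells, against 378 and 451 CPM in control cells. Its groups were well separated, the log2 fold change was -0.73 ± 0.162 (95% interval -1.11 to -0.35), and its edgeR adjusted p of 0.231 was the smallest among the members. Rpl26 passed an adjusted p of 0.05 in 4 of 15 alternative fits, over which that p ran from 1.39e-07 to nearly 1 and the log2 fold change from -0.84 to -0.61. Rpl22 (chr4:152325742-152334071), an RNA-binding protein on the surface of the large subunit near the exit, had 390 and 378 CPM in Brg1cKO cells and 483 and 467 CPM in control cells, a log2 fold change of -0.31 ± 0.127 (edgeR adjusted p = 0.382). Nearly all of its sequence is unique, with 98.6% of its 75-base windows in no other gene's transcript. Rpl19, also near the tunnel exit, had 242 and 250 CPM in Brg1cKO cells, against 263 and 285 CPM in control cells, separated by less than its standard error of 0.159 (log2 fold change -0.15). Rpl4, which lines the tunnel, was among the most even, at 1492 and 1414 CPM in Brg1cKO cells and 1543 and 1334 CPM in control cells.

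Of the remaining large subunit genes, Rpl13 had 379 and 299 CPM in Brg1cKO cells, against 233 and 243 CPM in control cells, a log2 fold change of 0.51 ± 0.174 (edgeR adjusted p = 0.368). Only 20.4% of its 75-base windows are found in no other gene's transcript, so its count is uncertain. Rpl36a, on the X chromosome, had 158 and 166 CPM in Brg1cKO cells and 129 and 93.8 CPM in control cells (log2 fold change 0.54 ± 0.244, edgeR adjusted p = 0.442), with 15.4% of its windows unique. Rpl6 was level, at 566 and 500 CPM in Brg1cKO cells and 572 and 546 CPM in control cells.

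In the small subunit, Rpsa, which sits at the exit of the message channel and is also known as a laminin receptor, had 1055 and 959 CPM in Brg1cKO cells, against 853 and 838 CPM in control cells. The groups did not overlap, and the log2 fold change was 0.25 ± 0.101 (edgeR adjusted p = 0.373). Rps2, at the entry of the channel, had 307 and 320 CPM in Brg1cKO cells and 254 and 221 CPM in control cells (log2 fold change 0.40 ± 0.161, edgeR adjusted p = 0.375). Rps26, which contacts the message upstream of the start codon and is a Diamond-Blackfan anaemia gene, had 484 and 474 CPM in Brg1cKO cells, against 358 and 404 CPM in control cells (log2 fold change 0.33 ± 0.134, edgeR adjusted p = 0.377). In all 3 genes both Brg1cKO libraries stood above both controls, as in 34.7% of tested members and 26.3% of all tested genes. These 3 were named for their small p, which favours such separation. Rps3, another protein of the entry channel, went the other way, with 802 and 858 CPM in Brg1cKO cells and 890 and 1067 CPM in control cells (log2 fold change -0.24 ± 0.120, edgeR adjusted p = 0.515). Rps15, in the head of the subunit, had 368 and 334 CPM in Brg1cKO cells, against 422 and 356 CPM in control cells. Rps10, also in the head, had 154 and 142 CPM in Brg1cKO cells and 157 and 152 CPM in control cells. The groups overlapped for both, and the 14 head proteins together had 9 positive fold changes and a median of 0.04.

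**Figure D3:**
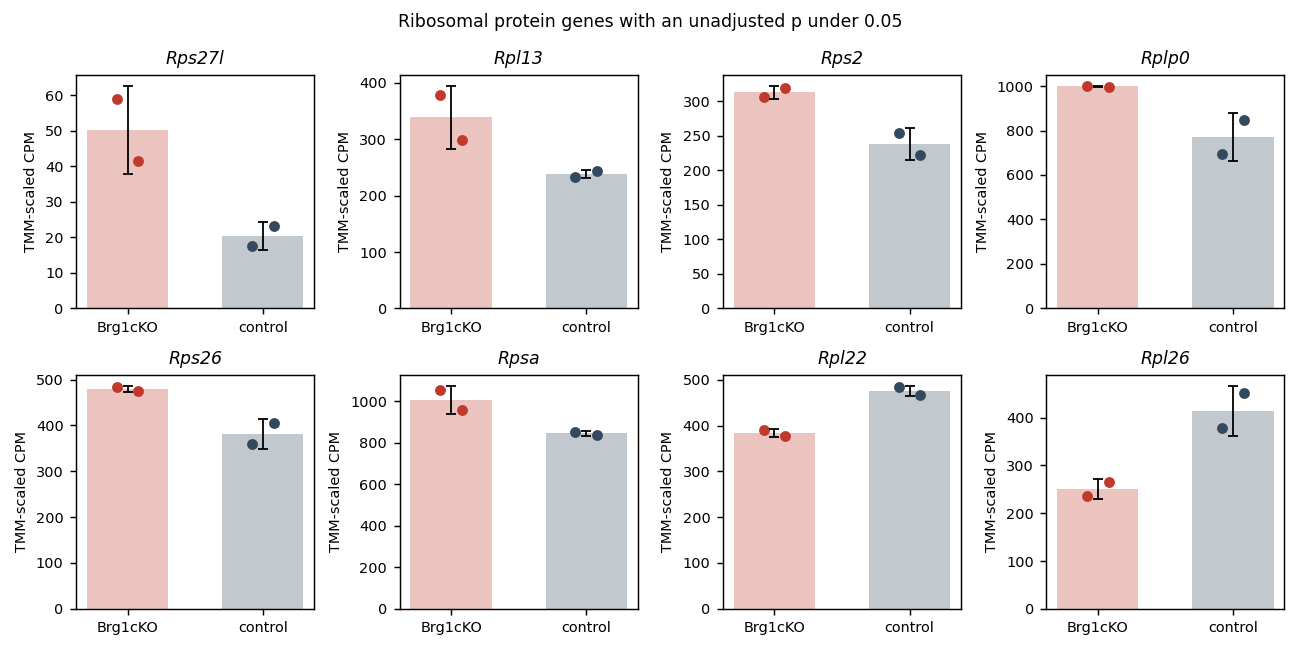
Scaled CPM of the 8 ribosomal protein genes with an unadjusted p under 0.05, with each library as a point, the group mean as a bar and the SD as an error bar (n = 2 each), Brg1cKO left of control. Rpl22 and Rpl26 are lower in both Brg1cKO libraries and the other 6 genes are higher, with Rps27l showing the largest ratio, at 50.3 CPM in Brg1cKO cells against 20.3 CPM in control cells.

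The largest fold change of the set belonged to Rps27l, a paralog of the zinc-finger protein Rps27 that can take its place in the small subunit and is known as a p53 target. Rps27l (chr9:66946086-66949516) had 59.0 and 41.5 CPM in Brg1cKO cells, against 17.5 and 23.1 CPM in control cells. Both Brg1cKO libraries were above both controls, although they differed from each other by more than the controls did. The log2 fold change was 1.31 ± 0.468 (95% interval 0.21 to 2.41, edgeR unadjusted p = 0.026, adjusted p = 0.368). It was positive in all 15 alternative fits (1.04 to 1.55) and passed an adjusted p of 0.05 in 3 of them, over which that p ran from 0.00612 to nearly 1. Rps27 itself (chr3:90212522-90213651) had 188 and 189 CPM in Brg1cKO cells, against 224 and 194 CPM in control cells, a log2 fold change of -0.15 ± 0.184 (edgeR adjusted p = 0.849). Rps27l reads therefore came to 31.4% and 22.0% of Rps27 reads in Brg1cKO cells, against 7.79% and 11.9% in control cells.

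The reads of this pair can be told apart by sequence. Their coding sequences, from GENCODE M21, are both 255 bases long and differ at 61 bases (76.1% identity), and the longest stretch they share is 11 bases, far below the 75-base read. They are shown because the paralog's values rest on that separation, with the differing bases in capitals.
Rps27l: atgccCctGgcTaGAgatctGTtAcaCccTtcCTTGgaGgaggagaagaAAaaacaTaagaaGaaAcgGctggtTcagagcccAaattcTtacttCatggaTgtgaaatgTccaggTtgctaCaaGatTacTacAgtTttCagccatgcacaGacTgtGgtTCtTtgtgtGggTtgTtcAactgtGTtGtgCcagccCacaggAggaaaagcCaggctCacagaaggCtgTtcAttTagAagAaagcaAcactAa
Rps27: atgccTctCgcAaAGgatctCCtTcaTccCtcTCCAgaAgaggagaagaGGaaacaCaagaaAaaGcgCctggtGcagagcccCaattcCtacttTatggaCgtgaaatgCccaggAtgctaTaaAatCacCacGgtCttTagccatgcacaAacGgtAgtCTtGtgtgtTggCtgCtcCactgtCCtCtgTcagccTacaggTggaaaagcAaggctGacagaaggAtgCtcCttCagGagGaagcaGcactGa
Of the 61 differing bases, 53 are the third base of a codon. Over whole transcripts, 91.9% of the 75-base windows of Rps27l and 57.6% of those of Rps27 occur in no other gene's transcript.

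Of the members named as paralogs, the other 3 were near or at 0. Rpl3l, a heart and skeletal muscle paralog of Rpl3, and Rpl10l, a testis paralog of Rpl10, had 0 reads in all 4 libraries, which allows up to 0.102 and 0.116 CPM in the Brg1cKO libraries and 0.195 and 0.157 CPM in the control libraries. Rpl39l, enriched in male germ cells, had 6 and 0 reads in Brg1cKO cells and 0 and 0 in control cells. Their widely expressed relatives were well detected, although only 36.0% of the windows of Rpl3 and 28.9% of those of Rpl10 are unique. Rpl3 had 721 and 684 CPM in Brg1cKO cells, against 527 and 670 CPM in control cells, and its fold change did not pass the test. Rpl10 had 460 and 413 CPM in Brg1cKO cells and 414 and 503 CPM in control cells, and Rpl39 had 126 and 166 CPM in Brg1cKO cells and 158 and 146 CPM in control cells. The groups overlapped for both, and the sign of both fold changes (-0.07 and -0.06) turned when single libraries were left out.

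Rpl23a and Rpl24 were also untested, with few reads for core large subunit proteins. Rpl23a, at the tunnel exit, had 171 and 5 reads in Brg1cKO cells and 0 and 0 in control cells. Only 18.3% of its 75-base windows are unique, and 59.7% of its exon bases are overlapped by Tlcd1 on the opposite strand. Rpl24, a bridge protein mutated in the mouse Belly spot and tail strain, had 6 and 1 reads in Brg1cKO cells and 36 and 0 in control cells, with 19.1% of windows unique and 47.0% of exon bases overlapped by Gm28037 on the same strand. Across the 80 genes, a median of 69.1% of windows were unique, 24 genes had under 50%, and 37 had some exon overlap with another gene, 18 of them on the opposite strand. Rpl35 had 10.8% of windows unique and 66.2% of its exon bases overlapped on the opposite strand. Its reads numbered 7128 and 7193 in Brg1cKO cells and 2696 and 4545 in control cells. Reads that could belong to several genes may not be in these counts, so levels of members with low uniqueness are uncertain. No cause of the few reads of Rpl23a and Rpl24 was tested.

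Levels among the members spanned a wide range when divided by transcript length. Rplp2 was highest, at 2036 CPM per kb of principal transcript in Brg1cKO cells and 1842 in control cells, followed by Rplp1 at 1944 in Brg1cKO cells and 1747 in control cells, and these neighbours overlapped between libraries. Rpl8, a protein close to the peptidyl transferase centre, followed at 1320 CPM per kb in Brg1cKO cells and 1236 in control cells. In the small subunit Rps9 led, at 907 CPM per kb in Brg1cKO cells and 777 in control cells, and Rps15 stood at 701 in Brg1cKO cells and 778 in control cells. The lowest tested genes were Rpl13a, with 53.4 CPM per kb in Brg1cKO cells and 58.3 in control cells, Rpl21, with 54.1 in Brg1cKO cells and 61.7 in control cells, and Rpl29, with 64.4 in Brg1cKO cells and 59.0 in control cells. These 3 overlapped one another and had wide replicate spread, and their counts are uncertain. Other genes on the same strand overlap 35.4% of the exon bases of Rpl13a. Rpl21 and Rpl29 share windows with 61 and 45 other genes, although 83.6% and 71.8% of their windows are unique. Rps15a stood at 71.0 CPM per kb in Brg1cKO cells and 67.1 in control cells, and Rps20 at 128 in Brg1cKO cells and 124 in control cells. The low place of these 2 genes rests on the long principal transcripts used for them, of 5130 and 3706 bases. Rps27l was the gene that moved furthest, with 101 CPM per kb in Brg1cKO cells and 40.6 in control cells. The order was similar in both genotypes (Spearman's rho 0.965 across 75 genes, which are not independent and share the same libraries). Among the same 75 genes, level per kb showed almost no relation to the share of unique windows (rho -0.02). Members with too few reads to be tested, Rpl23a and Rpl24 among them, were left out. This value therefore cannot show whether low uniqueness goes with few reads.

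**Figure D4:**
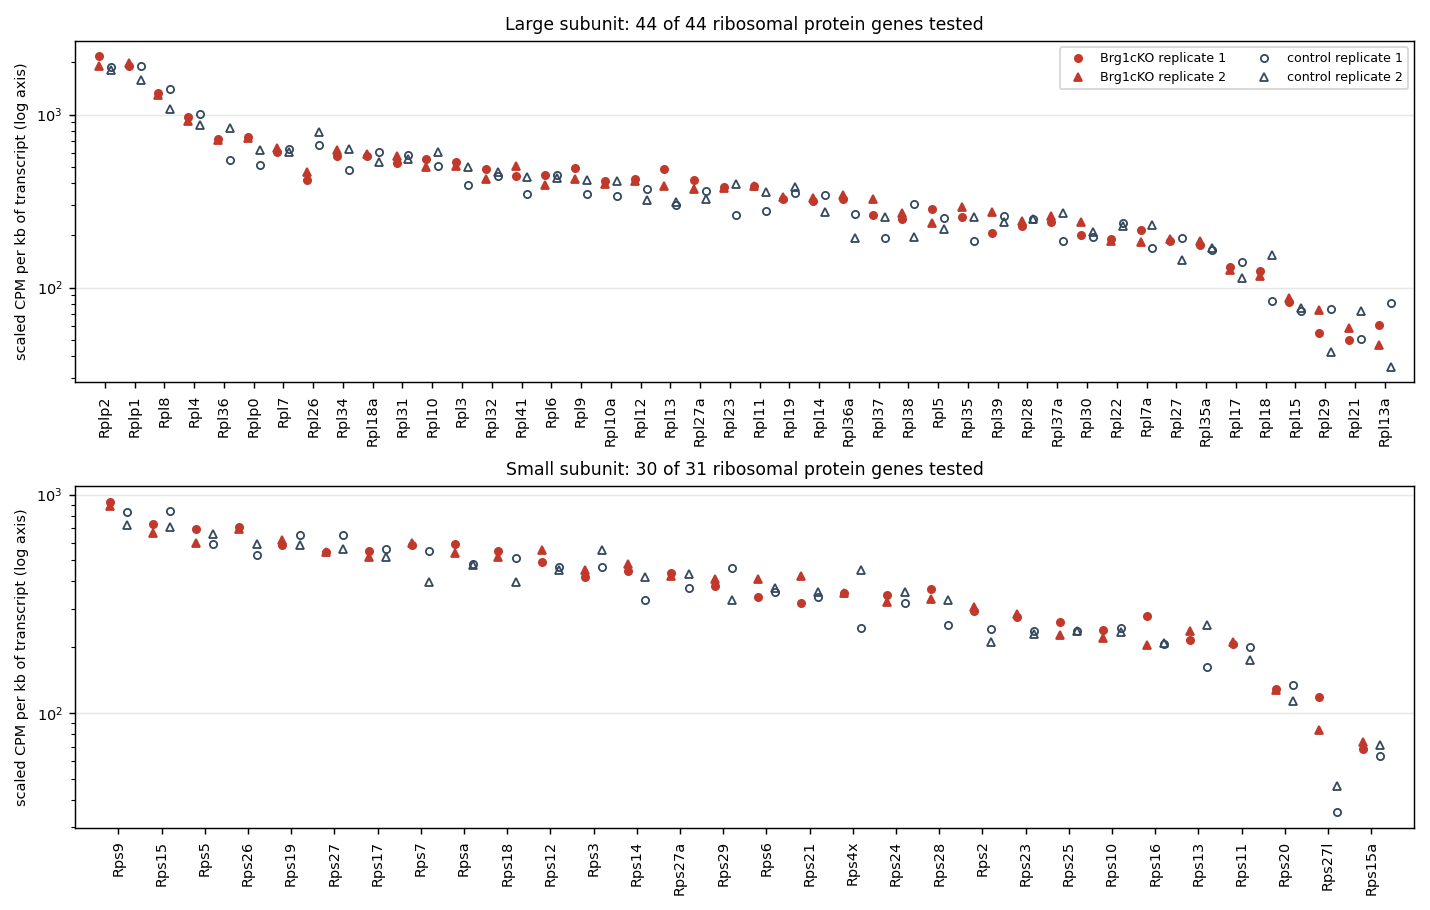
Scaled CPM per kb of principal transcript on a log axis for the 44 large subunit genes (top) and 30 of the 31 tested small subunit genes (bottom), ordered by their mean, with Brg1cKO libraries filled and control libraries open. The libraries lie close together for most genes, and in the small subunit Rps27l shows both Brg1cKO points well above both control points.

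Genes linked to disease or to mouse mutants followed no single direction. Of 18 Diamond-Blackfan anaemia genes, 11 had a positive fold change (median 0.06), and their range ran from -0.73 for Rpl26 to 0.33 for Rps26. Of the 5 tested genes with skeletal, tail or pigment mutants in mice, 4 were positive (median 0.06). Rpl38, the gene of the Tail-short mouse, which also has middle ear defects, had 91.0 and 99.2 CPM in Brg1cKO cells, against 111 and 71.7 CPM in control cells, so its groups overlapped. The 4 X-linked members had 2 positive and 2 negative fold changes.

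The start sites of the genes were compared with the TOP pattern, spelled as a C followed by at least 4 bases that are C or T, read on the gene's strand. RefSeq promoters (GRCm38.p6) were matched for 60 members. The tract began exactly at the annotated start in 13 of the 60 (21.7%), against 3.15% of 11403 tested genes with a promoter and 3.01% of all 27025 genes in the promoter table. Counted per promoter, it was 18.1% of the members' 72 and 2.51% of all 32851. Within 5 bases of the start it was found in 28 of 60 (46.7%), against 23.8% of the tested genes and 21.2% of all genes in the table, with tracts of 5 to 17 bases. A match describes these letters only, and annotated starts can be off by some bases. The windows below show 45 bases before the start and 20 from it for the Rps27 pair, for a pair of the higher small subunit genes, and for Rpl26 and Rplp0, where no tract lies within 5 bases, with the tract in capitals.
Rps27l, chr9:66946041-66946105, plus strand: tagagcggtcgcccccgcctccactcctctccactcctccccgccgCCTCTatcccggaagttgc
Rps27, chr3:90213629-90213693, minus strand: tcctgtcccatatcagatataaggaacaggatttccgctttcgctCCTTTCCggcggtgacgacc
Rps26, chr10:128626487-128626551, minus strand: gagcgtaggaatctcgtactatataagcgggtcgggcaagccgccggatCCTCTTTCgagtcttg
Rps2, chr17:24720018-24720082, plus strand: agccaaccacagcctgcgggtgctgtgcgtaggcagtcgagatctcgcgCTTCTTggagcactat
Rpl26, chr11:68901521-68901585, plus strand: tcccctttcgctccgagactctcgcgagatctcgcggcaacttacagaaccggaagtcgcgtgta
Rplp0, chr5:115559422-115559486, plus strand: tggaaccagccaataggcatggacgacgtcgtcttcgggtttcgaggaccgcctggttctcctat
Genes with and without the tract were found among those with an unadjusted p under 0.05: Rps27l, Rps26 and Rps2 have one near the start, and Rplp0, Rpl13, Rpsa, Rpl26 and Rpl22 do not.

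A few ribosomal proteins carry names outside the pattern. Rack1, a signalling scaffold on the small subunit, had 1092 and 1095 CPM in Brg1cKO cells, against 943 and 992 CPM in control cells. Rps3a1 had 350 and 324 CPM in Brg1cKO cells and 417 and 347 CPM in control cells, and Fau, which encodes a fusion with Rps30, had 324 and 328 CPM in Brg1cKO cells and 346 and 336 CPM in control cells. Rpl22l1, the paralog of Rpl22, had 32.9 and 24.3 CPM in Brg1cKO cells, against 28.3 and 51.7 CPM in control cells, so it overlapped while Rpl22 was lower in both Brg1cKO libraries.

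The other genes of ribosome production and translation were examined as lists. None of their genes passed an adjusted p of 0.05 in edgeR. The genes named from each list were picked for the smallest p, so they do not represent their lists. Of 15 translation factors with TOP messages, 11 had a positive fold change (median 0.08) and 3 (20%) were higher at an unadjusted edgeR p under 0.05, against 7.66% of all tested genes. Pabpc1, the poly(A)-binding protein, had 1722 and 1697 CPM in Brg1cKO cells, against 1353 and 1270 CPM in control cells (log2 fold change 0.38 ± 0.0830, edgeR adjusted p = 0.228). Eef1d, an elongation factor subunit, had 192 and 211 CPM in Brg1cKO cells and 124 and 83.5 CPM in control cells (log2 fold change 0.96 ± 0.254, edgeR adjusted p = 0.310). Of 29 initiation factors, 24 were positive (median 0.18) and 3 (10.3%) were higher at an unadjusted edgeR p under 0.05. Among the positive ones, Eif3c had 560 and 540 CPM in Brg1cKO cells, against 427 and 401 CPM in control cells. Eif2b1, of the factor that recharges eIF2 with GTP, had 56.6 and 65.7 CPM in Brg1cKO cells, against 27.9 and 20.6 CPM in control cells.

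Ribosome assembly genes had a median log2 fold change of 0.35, with 32 of 46 positive (69.6%, against 51.5% of all tested genes). Of the 46, 2 (4.35%) were under an unadjusted edgeR p of 0.05, both higher, against 7.66% of all tested genes higher. Ncl, which encodes the nucleolar protein nucleolin, had 1567 and 1642 CPM in Brg1cKO cells, against 1086 and 1119 CPM in control cells (log2 fold change 0.54 ± 0.0852, edgeR adjusted p = 0.110). Eif6, which keeps the large subunit from joining too early, had 123 and 121 CPM in Brg1cKO cells and 89.2 and 52.4 CPM in control cells. Of 14 RNA polymerase I genes, 8 were positive (median 0.06) and 0 were under that p. Polr1d had 33.5 and 41.3 CPM in Brg1cKO cells, against 50.7 and 95.7 CPM in control cells. Mitochondrial ribosomal proteins, which build the separate ribosome of mitochondria, had 57 of 76 positive and a median of 0.33. Of these 76, 2 (2.63%) were under that p, 1 higher and 1 lower, against 12.5% of all tested genes in either direction.

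Regulators of ribosome production had 11 of 17 positive. Eif4ebp1, the mTOR substrate that represses cap-dependent translation, had 75.1 and 88.4 CPM in Brg1cKO cells, against 34.0 and 41.5 CPM in control cells (log2 fold change 1.11 ± 0.348, edgeR adjusted p = 0.368). Mtor itself had 161 and 135 CPM in Brg1cKO cells and 113 and 61.8 CPM in control cells. Mycn, a transcription factor that drives ribosome production, had 75.4 and 55.0 CPM in Brg1cKO cells, against 137 and 90.4 CPM in control cells (log2 fold change -0.80 ± 0.333, edgeR adjusted p = 0.385). Both Eif4ebp1 and Mycn had groups that did not overlap, in opposite directions. They were named for their small p, which favours such separation. Both Brg1cKO libraries stood above both controls for 6 of the 17 regulators (35.3%), against 26.3% of all tested genes. They stood below both for 2 (11.8%), against 17.8% of all tested genes. Under the unadjusted edgeR p threshold used for the other lists were 2 of the 17 (11.8%), 1 higher and 1 lower. The share was 12.5% over all tested genes.

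**Figure D5:**
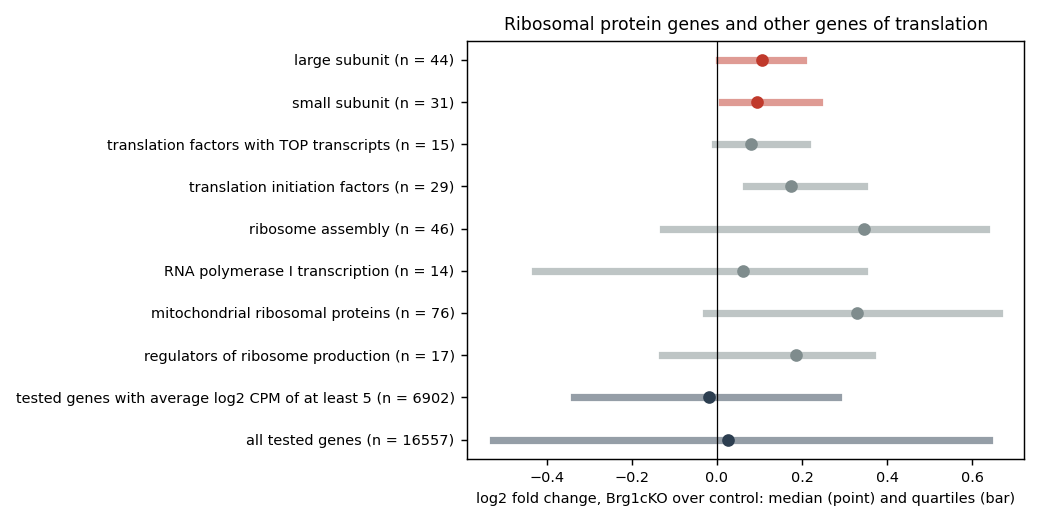
Median (point) and quartiles (bar) of the log2 fold change of Brg1cKO over control for the ribosomal protein subunits in red, other lists of translation genes in grey and the background genes in dark blue. The subunits have medians of 0.11 and 0.10 with narrow bars, while ribosome assembly (0.35) and mitochondrial ribosomal proteins (0.33) have larger medians and wider bars.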

How the data were processed

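Bead-purified mRNA from 3000 cells per library was made into random-primed, strand-specific SMART-seq libraries and read from a single end over 75 bases, per the labels' protocols. The authors deposited raw counts per gene under Ensembl identifiers, as whole numbers with no normalization. HISAT2, HTSeq, DESeq2 and mm10 are named in the submitters' processing notes, without role or version, and neither the strand setting nor the annotation of the counting is stated there. Each count table also held 5 lines that name no gene, which were left out of totals and tests. Records assigned to a gene made up 64.0% and 63.7% in Brg1cKO libraries and 48.2% and 49.3% in control libraries.

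Gene names, positions, transcripts and 75-base windows came from GENCODE M21 (GRCm38, the mm10 assembly), which held 52489 of the 52636 identifiers. Genes were kept with edgeR's filterByExpr at a minimum count of 10 (16557 genes), scaled with TMM and fitted with edgeR 4.0.16 (glmQLFit with robust moderation, glmQLFTest; R 4.3.3, limma 3.58.1), all 4 libraries in 1 fit, with Benjamini-Hochberg adjustment over all tested genes. Alternatives were DESeq2 1.42.0, limma voom, other scalings, filters and moderation, a replicate block, thinned libraries and leaving out each library. The limit for a count of 0 is 3 counts and covers counting error only. Python 3.11.15 made the summaries.

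The members and gene lists were chosen with earlier results of these data known. Genes were named by a rule. It took Smarca4, members past an adjusted p of 0.05, and the 4 members with the smallest p per subunit and direction. It also took the 3 highest and 3 lowest per kb in each subunit, and paralogs with their parent genes. Members of the role lists were given as counts and ranges. Of each other fixed list, it took up to 4 genes with the smallest p. Genes outside this rule (Rpl5, Rpl11, Rpl4, Rpl28, Rpl35, Rpl38, Rpl22l1 and those outside the name pattern, and the untested Rpl23a and Rpl24) were chosen after their values were seen. No pathway or gene set test was run. Some genes that the rule selects are not reported here.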

Additional observations from a re-analysis of the deposited data

Results flagged for a closer look

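Among the records outside the gene counts, both kinds that touch on repeated or overlapping sequence held a larger share of all records in the Brg1cKO libraries. All records include unaligned ones, which made up 9.54% and 9.41% in Brg1cKO libraries, against 20.9% and 19.1% in control libraries. The shares below therefore do not compare aligned records alone, and shares of aligned records were not computed. Records ambiguous between genes made up 3.003% and 2.95% of records in Brg1cKO libraries, against 2.23% and 2.20% in control libraries. Records that did not align uniquely made up 8.95% and 9.01% in Brg1cKO libraries, against 7.63% and 7.76% in control libraries. Records with no annotated feature went the other way, at 14.5% and 15.0% in Brg1cKO libraries, against 21.0% and 21.6% in control libraries. Ribosomal protein genes have many near-identical copies. Their part in the members' values was not tested.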

How the results depend on the processing

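The 5 genes called over the whole table became 417 with every gene of at least 1 count, 10 with a minimum count of 50, 70 with the newer edgeR moderation, 140 with a replicate block, 2422 with DESeq2, 54 with limma voom, 38 at an adjusted p under 0.10, and 33 to 3519 without single libraries. Members called became 1 with every gene of at least 1 count (Rpl26), 8 with DESeq2, and 0 to 15 without single libraries. Of 75 members, 5 were at an unadjusted p under 0.05 with RLE scaling, beside 12.6% of all tested genes. Such members numbered 5 with the replicate block, beside 8.41% of all tested genes, and 13 with limma voom, beside 12.2%. Among the 40 members with no exon overlap, an alternative chosen after seeing the data, they numbered 5. The cause of these moves was not tested. Medians without single libraries were 0.0859 to 0.116 (large) and 0.0990 to 0.177 (small). The difference in small subunit share was 0.0790 percentage points with Rps3a1 and Fau added. Of 300 values for named genes, 270 kept direction and side of the threshold, 24 became called and 6 turned: Rpl10 (0.0123 without Brg1cKO replicate 2, 0.0577 without control replicate 2; range without single libraries -0.20 to 0.0577), Rpl39 (0.135 without Brg1cKO replicate 1, 0.00146 without control replicate 1; range -0.27 to 0.135), and, without Brg1cKO replicate 2, Rpl6 (range -0.15 to 0.0247) and Rps10 (range -0.11 to 0.000848). Deviations from the group means were almost uncorrelated between the libraries of the same replicate number (-0.00528 across tested genes). With 2 libraries per group, this value cannot show whether libraries shared a litter or a sort. Windows unique in the whole genome were not run. At this depth and with 2 libraries per group, the median member's 95% interval reached 0.39 to either side on the log2 scale.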

Other observations

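A list of p53 target genes, chosen after seeing the data because Rps27l is one, had 6 of 12 tested genes with a positive log2 fold change (median 0.10). Mdm2, the p53 inhibitor that free ribosomal proteins bind, had 96.1 and 103 CPM in Brg1cKO cells, against 73.9 and 60.3 CPM in control cells. Phlda3 had 25.9 and 10.9 CPM in Brg1cKO cells, against 3.05 and 3.77 CPM in control cells. Cdkn1a, the cell cycle inhibitor, had 12.3 and 17.4 CPM in Brg1cKO cells and 20.4 and 15.2 CPM in control cells, so its groups overlapped, as did those of Ccng1, at 75.6 and 104 CPM in Brg1cKO cells and 63.5 and 80.6 CPM in control cells.

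Ribosomal protein pseudogenes, of which 206 of 285 were detected, summed to 681 and 669 CPM in Brg1cKO cells and 629 and 669 CPM in control cells, so the groups overlapped. Red blood cell markers summed to 232 and 218 CPM in Brg1cKO cells, against 639 and 670 CPM in control cells. Endothelial markers summed to 3703 and 3663 CPM in Brg1cKO cells and 3442 and 3144 CPM in control cells, and mesenchyme markers to 3170 and 3250 CPM in Brg1cKO cells and 3928 and 4288 CPM in control cells. The 13 mesenchyme markers split both ways, with 7 positive and a median log2 fold change of 0.10. Rps4l, a relative of Rps4x that GENCODE does not list as protein-coding, had 41.2 and 71.7 CPM in Brg1cKO cells and 55.3 and 69.5 CPM in control cells. Rpl7l1 had 113 and 93.8 CPM in Brg1cKO cells, against 112 and 130 CPM in control cells.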
